A study of Mus musculus with 32 samples.

Results

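Nras and 9 genes that report the output of its pathway were followed in 32 primary mouse melanomas: Dusp4, Dusp6, Spry2, Spry4, Spred1, Etv1, Etv4, Etv5 and Phlda1. These 10 genes were the rows of the count and TPM tables whose Ensembl identifiers carry those symbols, 10 of 50600 genes in all, and each symbol matched 1 row. RNA of whole tumours was sequenced from 4 groups of 8 tumours, Ecad males, Ecad females, ΔEcad males and ΔEcad females. Every mouse carried Tyr::NrasQ61K, an NRAS oncogene with the activating substitution Q61K driven by the tyrosinase promoter and so expressed in pigment cells, was Cdkn2a-/+ and had both alleles of Cdh1, the gene of E-cadherin, floxed (Cdh1F/F). Ecad tumours lacked a second transgene (°/°). ΔEcad tumours carried Tyr::CreA by the study's methods, written Tyr::NRAS/° in the labels, so that Cdh1 is deleted in melanocytes and not in the skin or stroma of the same tumour. The mice were on a C57BL/6J background, and the labels give no age. All tumours share the oncogene and the Cdkn2a allele, so no group without the oncogene serves as a reference. The activity of the RAS pathway itself was not measured here. The reads were counted on mouse Nras, and whether reads of the transgene entered that row was not tested.

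NRAS is a small GTPase that, when bound to GTP, starts the RAF, MEK and ERK kinase cascade, and oncogenic NRAS is one of the common drivers of melanoma. ERK induces a set of genes that restrain it again. Dusp4 and Dusp6 encode phosphatases that remove the activating phosphates from ERK, in the nucleus and the cytoplasm respectively. Sprouty proteins (Spry2, Spry4) and the related Spred1, which brings the RAS inactivator neurofibromin to the membrane, act upstream of RAF. Etv1, Etv4 and Etv5 are the PEA3 group of ETS transcription factors, and Phlda1 is a pleckstrin-homology protein induced with them. The RNA of such genes is widely read as a measure of ERK output.

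One way in which ERK controls some of these genes is through Capicua, a repressor that ERK signalling removes from DNA and that recognises short octamers. The promoters below are shown because 3 of these genes carry such octamers and Nras, the gene at the head of the pathway, is given for contrast. RefSeq start sites on GRCm38.p6 matched 6 of the 10 genes with 8 start sites. Dusp4, Spry4, Etv4 and Phlda1 were not matched. Each run is the 250 bases before a start site, 5′ to 3′ on the strand of the gene, with any of the octamers TGAATGAA, TGAATGAG, TGAATGGA, TGAATGGG, TCAATGAA, TCAATGAG, TCAATGGA and TCAATGGG, on either strand, in capitals.
Dusp6, chr10:99262981-99263230, plus strand: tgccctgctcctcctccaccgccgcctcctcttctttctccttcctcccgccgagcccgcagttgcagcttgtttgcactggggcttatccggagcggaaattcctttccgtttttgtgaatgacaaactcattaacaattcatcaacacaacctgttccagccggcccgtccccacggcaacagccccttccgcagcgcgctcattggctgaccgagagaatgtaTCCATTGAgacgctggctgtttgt
Etv5, second start site, chr16:22438369-22438618, minus strand: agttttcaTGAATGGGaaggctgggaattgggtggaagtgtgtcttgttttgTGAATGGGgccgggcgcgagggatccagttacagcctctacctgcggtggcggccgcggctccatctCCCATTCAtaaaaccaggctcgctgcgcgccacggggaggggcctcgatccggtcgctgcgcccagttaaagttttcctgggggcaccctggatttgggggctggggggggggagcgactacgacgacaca
Spry2, chr14:105896820-105897069, minus strand: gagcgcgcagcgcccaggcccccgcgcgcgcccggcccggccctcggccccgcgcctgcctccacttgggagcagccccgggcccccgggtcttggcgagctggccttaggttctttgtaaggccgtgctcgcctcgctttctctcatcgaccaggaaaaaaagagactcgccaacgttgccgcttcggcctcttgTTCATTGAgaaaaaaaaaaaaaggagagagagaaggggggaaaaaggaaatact
Nras, chr3:103058035-103058284, plus strand: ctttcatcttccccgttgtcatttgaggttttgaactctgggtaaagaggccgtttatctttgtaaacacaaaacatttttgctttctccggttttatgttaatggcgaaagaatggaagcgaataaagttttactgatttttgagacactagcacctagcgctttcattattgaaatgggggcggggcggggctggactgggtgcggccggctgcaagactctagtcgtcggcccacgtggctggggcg
Dusp6 held TCCATTGA, which reads TCAATGGA on the other strand, 24 to 17 bases before its start. Etv5 held TGAATGGG 3 times, on both strands. Spry2 held TTCATTGA, which reads TCAATGAA on the other strand, 54 to 47 bases before its start. The windows of Nras, Spred1, Etv1 (2 start sites) and the first start site of Etv5 held none of the letters. Of 32851 promoter windows of the same length, 5.86% held at least 1 octamer and 0.35% at least 2. The ETS core CCGGAA (12% of all windows), the cyclic AMP element TGACGTCA (1.55%) and the AP-1 motif TGANTCA (6.75%), searched on both strands, were in none of the 8 windows.

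Total counts ran from 24036333 to 63923086 per tumour. Reads of the 10 genes ran from 362 counts (the lowest tumour for Etv4) to 48656 (the highest for Phlda1), so counting error was small beside the spread between tumours. Melanocytic markers (8 genes, Dct and Tyr among them) had summed levels of 5880 to 76100 TPM in 31 tumours and 31.8 TPM in ΔEcad male 7. Keratinocyte markers (8 genes, Krt5 and Krt14 among them) summed to between 5.21 and 35300 TPM, with medians of 4390 and 8.12 TPM in male and female Ecad tumours and of 521 and 6770 TPM in male and female ΔEcad tumours. ΔEcad female 3 stood apart by low markers of several other cell types, with an endothelial score (mean log2 CPM of the markers) of -2.73 where the other tumours had at least 2.85, a macrophage score of -2.23 against at least 3.18, and T cell and red blood cell markers at 0 TPM. Skeletal muscle markers had medians of 2390 and 13.7 TPM in male and female Ecad tumours and of 326 and 954 TPM in male and female ΔEcad tumours, and their part in the results was not tested. Y-linked Ddx3y was at 0 TPM, and Xist at 6.41 TPM, in the library labelled ΔEcad male 2, and ΔEcad female 1 had 0.37 TPM of Ddx3y. Cdh1 was at medians of 145 and 3.29 TPM in Ecad and ΔEcad males, and of 30.6 and 46.7 TPM in Ecad and ΔEcad females. Since whole tumours were sequenced, fewer cells of a type and less RNA per cell cannot be told apart in any value below.

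All 10 genes were well expressed. By median TPM, a level scaled for gene length and library size, over the 32 tumours, the order was Phlda1 (440.8 TPM), Dusp6 (313.8), Dusp4 (175.8), Etv5 (166.1), Spry2 (75.5), Nras (58.5), Spry4 (53.8), Etv4 (53.2), Spred1 (39.9) and Etv1 (39.5). The ranges of each neighbouring pair in that order overlapped, and Nras, Spry4 and Etv4, or Spred1 and Etv1, had medians closer together than the spread of either gene. Phlda1 stood above 98.6% of the 17717 genes tested and Etv1 above 80.2%.

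The genes differed most in how far they varied. Nras was among the steadiest genes of these tumours, with an SD of 0.365 in log2 CPM (counts scaled to library size by TMM), and only 2.9% of the tested genes had a smaller one. Dusp4 (SD 1.34), Etv5 (1.08) and Etv1 (1.07) varied most of the 10, above the median SD of all tested genes of 0.866. In TPM, Nras spanned 2.74-fold from the lowest to the highest tumour and Dusp4 62.9-fold.

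**Figure D1:**
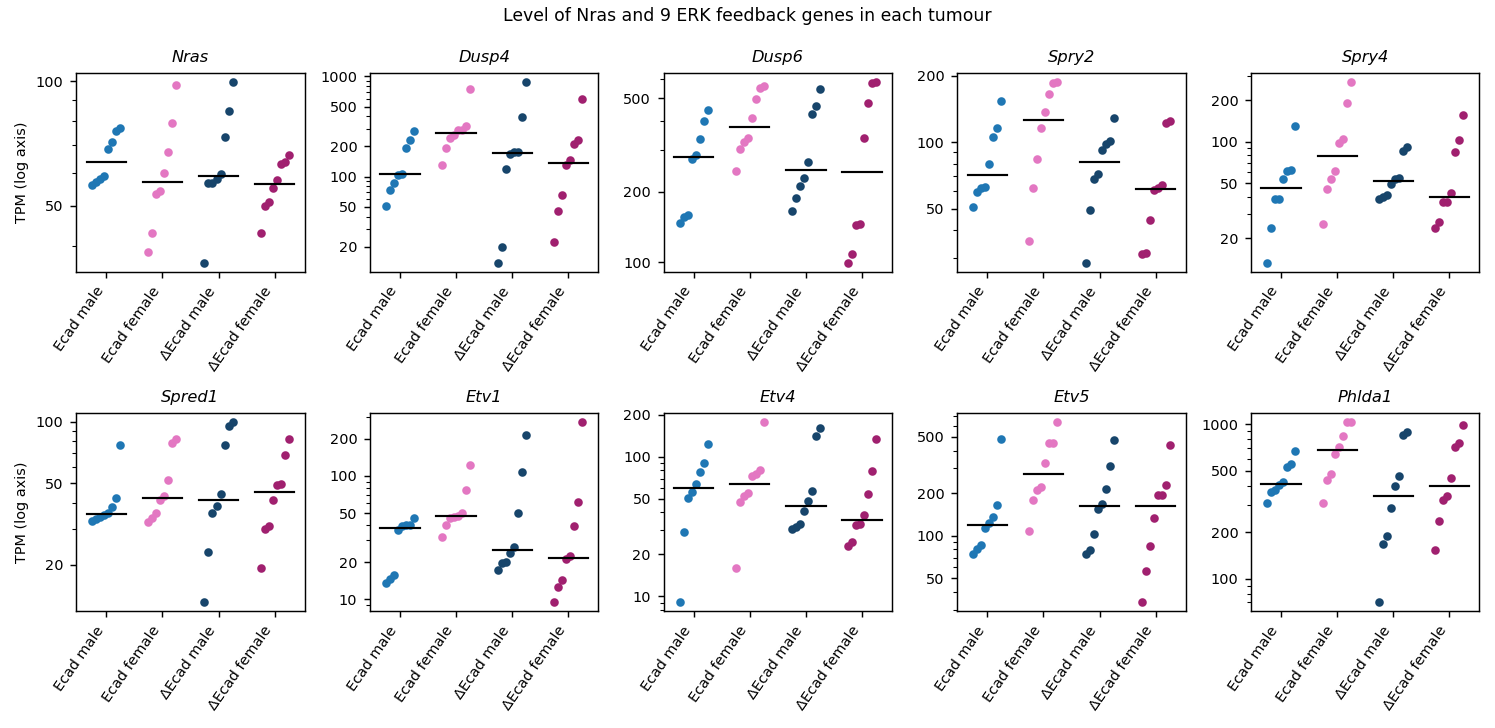
Levels of the 10 genes in TPM on log axes, 1 point per tumour and 8 tumours per group, with black bars at group medians. The 4 groups overlap for every gene, and Nras keeps between 36.4 and 99.5 TPM while Dusp4 runs from 13.9 to 873 TPM.

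Nras (ENSMUSG00000027852, chromosome 3, 103058285 to 103067914, plus strand, GRCm38) was at 56.2 to 76.96 TPM in Ecad males with a median of 63.6. It was at 38.6 to 97.7 TPM (median 57.1) in Ecad females. The ΔEcad males ran from 36.4 to 99.5 TPM (median 58.9) and the ΔEcad females from 42.9 to 66.2 TPM (median 56.4). The groups overlapped throughout, and the 2 widest groups, Ecad females and ΔEcad males, held both the lowest and the highest tumours. The genotype log2 fold change of Nras was -0.15 (SE 0.19) in females and 0.27 (SE 0.19) in males, with edgeR adjusted p-values of 0.787 and 0.609. Between ΔEcad females and males Nras had a log2 fold change of -0.48 (SE 0.19, unadjusted p 0.0163, edgeR adjusted p 0.517), and on the log2(TPM + 1) scale this was -0.18. It was -0.35 without ΔEcad male 1 and -0.30 without ΔEcad male 6.

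The 2 scales parted in some tumours. The TMM scaling behind the CPM set ΔEcad male 1 higher by 1.09 on the log2 scale than TPM did, relative to the median tumour, ΔEcad male 8 by 0.63 and the library labelled ΔEcad male 2 by 0.52, while the lowest offset was -0.37. In males the median log2 fold change of all tested genes between ΔEcad and Ecad was 0.11 by edgeR and -0.16 by limma on log2(TPM + 1), so fold changes in males are also given relative to all genes.

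Dusp4 (ENSMUSG00000031530, chromosome 8, 34807297 to 34819894, plus strand) ranged from 50.6 to 282 TPM (median 105.1) in Ecad males. Ecad females ran from 129 to 745 TPM with a median of 274.5, and all 8 lay above the Ecad male median. ΔEcad males ran from 13.9 to 873 TPM (median 171.2) and ΔEcad females from 22.3 to 595 TPM (median 137.7), with 7 of the 8 ΔEcad females below the Ecad female median. The phosphatase gene varied least in Ecad females, its highest group, and most in ΔEcad males (SD of 0.644 and 1.83 in log2 CPM), where ΔEcad male 1 and ΔEcad male 7 were lowest and ΔEcad male 5 highest. The log2 fold change was -0.87 (SE 0.58) between genotypes in females, 0.77 (SE 0.57) in males and 1.09 (SE 0.58) between Ecad females and males. The interaction, the female minus the male genotype effect, was -1.64 (SE 0.81). None passed the correction (edgeR adjusted p 0.525, 0.638, 0.355 and 0.289). Without ΔEcad male 5 the male value was 0.26.

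Dusp6 (ENSMUSG00000019960, chromosome 10, 99263231 to 99267489, plus strand), the cytoplasmic ERK phosphatase, had medians of 281.3 and 375.2 TPM in Ecad males and females. Its medians in ΔEcad males and females were 246.9 and 242.1 TPM, and 5 of the 8 ΔEcad males lay below the Ecad male median. The ΔEcad females fell apart into 4 tumours from 99.7 to 146 TPM and 4 from 338 to 584 TPM, while Ecad females ran from 244.7 to 563 TPM. The lower 4 thus lay below all 8 Ecad females, and the upper 4 overlapped them. The log2 fold changes of Dusp6 were -0.38 (SE 0.38) between genotypes in females and 0.51 (SE 0.38) in males, with edgeR adjusted p-values of 0.728 and 0.64. The former was -0.64 without ΔEcad female 4 and -0.23 without ΔEcad female 3.

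Spry2 (ENSMUSG00000022114, chromosome 14, 105891947 to 105896819, minus strand), which restrains receptor signalling to RAS, gave the largest shift of the 10 genes between female genotypes relative to its error. Ecad females ran from 35.8 to 187 TPM (median 126.3) and ΔEcad females from 31.2 to 125 TPM (median 61.5). All 8 ΔEcad females lay below the Ecad female median, yet the groups overlapped, since Ecad females 5 and 7 were at 35.8 and 61.9 TPM. The fold change was -0.95 on the log2 scale (SE 0.34, unadjusted p 0.00933, edgeR adjusted p 0.135), and DESeq2 gave an adjusted p of 0.0706. Leaving out ΔEcad female 4, at 125 TPM, gave -1.22 (SE 0.34) and an edgeR adjusted p of 0.0397, the only one of all fits that called any of the 10 genes. In males Spry2 was at 51.0 to 154 TPM (median 71.1) in Ecad and 28.4 to 129 TPM (median 81.5) in ΔEcad tumours, with a log2 fold change of 0.10 (SE 0.34). The interaction was -1.05 (SE 0.48, unadjusted p 0.0364, edgeR adjusted p 0.244).

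Spry4 (ENSMUSG00000024427, chromosome 18, 38586247 to 38601415, minus strand), the second Sprouty gene, ran from 13.3 TPM in Ecad male 4 to 271 TPM in Ecad female 4. Its medians were 46.3, 79.5, 52.0 and 39.6 TPM in Ecad males, Ecad females, ΔEcad males and ΔEcad females. Its log2 fold changes were -0.64 (SE 0.46) between female genotypes and 0.93 (SE 0.47) between Ecad females and males, with edgeR adjusted p-values of 0.576 and 0.324. The former was -1.06 without ΔEcad female 4 and -0.33 without Ecad female 4. Gm27369 and Gm27804 overlap Spry4 on the other strand, and both had 0 counts in all tumours.

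Spred1 (ENSMUSG00000027351, chromosome 2, 117121374 to 117182279, plus strand) was the steadiest of the 9 feedback genes, with an SD of 0.554 in log2 CPM. Its group medians lay between 35.3 TPM in Ecad males and 45.3 TPM in ΔEcad females, and Ecad males were tightly packed but for Ecad male 1 at 76.9 TPM. Its log2 fold changes were -0.21 (SE 0.28) between genotypes in females and 0.46 (SE 0.28) in males (edgeR adjusted p 0.808 and 0.554).

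Etv5 (ENSMUSG00000013089, chromosome 16, 22381309 to 22439719, minus strand) was the most abundant of the PEA3 genes. It ran from 74.3 to 483 TPM (median 118.1) in Ecad males and from 109 to 643 TPM (median 275.1) in Ecad females. ΔEcad males ran from 73.9 to 478 TPM (median 161.5), and ΔEcad females from 34.0 to 442 TPM (median 163.1). Of the Ecad females 7 lay above the Ecad male median and of the ΔEcad females 7 lay below the Ecad female median, with overlap in both cases. The log2 fold changes were -0.90 (SE 0.51) between female genotypes, 0.99 (SE 0.51) between Ecad sexes and -1.41 (SE 0.71) for the interaction (edgeR adjusted p 0.422, 0.341 and 0.299). Without ΔEcad female 4 the first was -1.36, and without Ecad male 8 the second was 1.62.

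Etv1 (ENSMUSG00000004151, chromosome 12, 38779380 to 38870484, plus strand) was skewed by single tumours. ΔEcad female 8 reached 275.3 TPM where the median of its group was 21.7 TPM, and ΔEcad male 5 at 215.2 against 25.1 TPM. The ΔEcad medians were thus below those of Ecad males (38.1 TPM) and Ecad females (47.0 TPM), although the group means of Ecad females and both ΔEcad groups all lay between 57.0 and 59.9 TPM. The male genotype fold change was 1.03 on the log2 scale (SE 0.53, edgeR adjusted p 0.501), with only 3 of 8 ΔEcad males above the Ecad male median. It was 0.52 without ΔEcad male 5. Between female genotypes it was -0.19 (SE 0.52) and ranged, with a tumour left out, from -1.08 without ΔEcad female 8 to -0.01 without Ecad female 1.

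Etv4 (ENSMUSG00000017724, chromosome 11, 101769742 to 101785371, minus strand) had medians of 60.1 and 63.7 TPM in Ecad males and females and of 44.5 and 35.5 TPM in ΔEcad males and females. Its log2 fold changes were -0.42 (SE 0.47) in females and 0.39 (SE 0.47) in males, both smaller than their errors. In females it was -0.86 without ΔEcad female 4 and -0.17 without Ecad female 4. Of the 8 ΔEcad tumours of each sex, 2 lay above the median of the Ecad tumours of that sex.

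Phlda1 (ENSMUSG00000020205, chromosome 10, 111506286 to 111508645, plus strand), the most abundant of the 10, ran from 70.6 TPM in ΔEcad male 7 to 1042 TPM in Ecad female 4. Its medians were 411.2 and 676.9 TPM in Ecad males and females and 342.9 and 395.5 TPM in ΔEcad males and females. Its log2 fold changes were -0.52 (SE 0.41) between female genotypes and 0.03 (SE 0.41) between male genotypes, and the latter was -0.49 on the log2(TPM + 1) scale. Gm28592 overlaps Phlda1 on the other strand with 3320 counts over all tumours. Strand-aware counting is not stated, so the split between both genes is uncertain.

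The first comparison asks whether loss of E-cadherin in the melanocytes of female mice goes with a different ERK output. All 10 genes were lower in ΔEcad than in Ecad females, with log2 fold changes from -0.95 to -0.15 and a median of -0.47, against -0.02 over all tested genes, of which 51.6% were lower. By edgeR 0 of the 10 passed an adjusted p of 0.05 with an absolute log2 fold change over 1, as did 1.2% of all tested genes, and 1 (Spry2) had an unadjusted p under 0.05, as did 15.3% of all tested genes. DESeq2 and limma also called 0. With keratinocyte and melanocytic marker scores as covariates, 9 of 10 were lower and the median was -0.22. Without ΔEcad male 7 and ΔEcad female 3 all 10 were lower (median -0.39), as without the library labelled ΔEcad male 2 and ΔEcad female 1 (median -0.37). Without ΔEcad female 4 the median was -0.83, again with all 10 lower.

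The same comparison in males gave fold changes of the other sign. All 10 genes were higher in ΔEcad males by edgeR, from 0.03 to 1.03 with a median of 0.43, or 0.32 above the median of all tested genes, of which 59.1% were higher. On the log2(TPM + 1) scale 7 of 10 were higher and the median stood 0.29 above that of all genes. Nras, Spry2 and Phlda1 were then lower. By group medians in TPM, ΔEcad males lay below Ecad males for Nras, Dusp6, Etv1, Etv4 and Phlda1. They lay above for Dusp4, Spry2, Spry4, Spred1 and Etv5. The rise of all 10 thus held for the edgeR fold changes and not for the typical tumour. EdgeR called 0 of the 10 and 0% of all tested genes, and 0 had an unadjusted p under 0.05 against 10.2% of all tested genes. DESeq2 and limma called 0 of the 10 as well. Without ΔEcad male 6 the median was 0.215. With the marker scores as covariates it was 0.29, against 0.10 over all tested genes. Without the library labelled ΔEcad male 2 and ΔEcad female 1 it was 0.48.

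Between the sexes within a genotype, 9 of 10 genes were higher in Ecad females than in Ecad males, Nras being the exception at -0.05 (SE 0.19). The median log2 fold change was 0.64, against 0.05 over all tested genes, of which 53.9% were higher, and with the marker scores as covariates it was 0.26 with 8 of 10 higher. In ΔEcad tumours 9 of 10 were lower in females, Phlda1 being the exception at 0.14 (SE 0.41), with a median of -0.37 against -0.06 over all tested genes, of which 54.9% were lower. EdgeR called 0 of the 10 in either comparison, where 0.0508% and 0.0395% of all tested genes were called. At an unadjusted p under 0.05 there were 0 and 1 (Nras), against 16% and 8.81% of all tested genes, and DESeq2 and limma called 0. The first of these counts depended on the fit. Between Ecad sexes it was 5 of 10 with only the groups compared (smallest edgeR adjusted p 0.118). It was 2 by DESeq2, by each limma fit and with no low-count filter, 1 with the replicate block and 0 with the marker scores as covariates. The shares of all tested genes in those fits are not given. The median between ΔEcad sexes was -0.23 without ΔEcad female 2 and -0.24 without ΔEcad male 5. It was -0.35 with the marker scores as covariates. Without the library labelled ΔEcad male 2 and ΔEcad female 1 it was -0.34.

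The interaction tests directly whether the genotype effect differs between the sexes. It was negative for all 10 genes, from -1.64 (Dusp4) to -0.43 (Nras), with a median of -0.96 against -0.16 over all tested genes, of which 58.6% were negative. EdgeR called 0 of the 10, as for 0% of all tested genes, with 1 (Spry2) at an unadjusted p under 0.05 against 17.7% of all tested genes. DESeq2 and limma called 0 and the smallest edgeR adjusted p was 0.244. The difference between the sexes in genotype effect was therefore not detectable for any single gene at this number of tumours. With the marker scores as covariates the median interaction was -0.57, against -0.15 over all tested genes. All 10 were then negative and 0 had an unadjusted p under 0.05 by edgeR. Without the library labelled ΔEcad male 2 and ΔEcad female 1 the median was -0.88. In TPM, the groups of a pairwise comparison overlapped for all 10 genes, and of all tested genes 0.0339%, 0.0282%, 0.113% and 0.00564% had groups without overlap in the 4 pairwise comparisons, in the order given. The 5 comparisons share groups, so their fold changes are not independent of each other, and neither are 10 genes of 1 pathway.

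**Figure D2:**
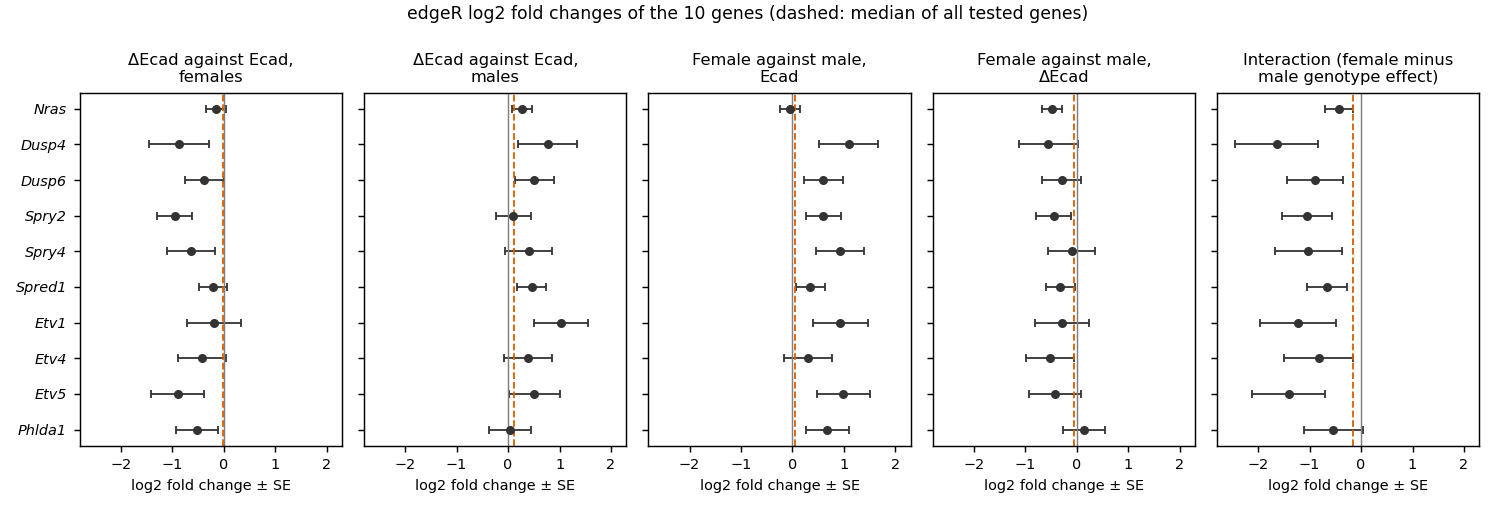
Log2 fold changes of the 10 genes by edgeR, with bars of 1 SE, in the 4 pairwise comparisons and the interaction; grey lines mark 0 and dashed lines the median of all tested genes. The points of ΔEcad against Ecad lie below 0 in females (median -0.47) and above 0 in males (median 0.43), and no gene was called.

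Keratinocyte markers also differed between the groups. The keratinocyte score, the mean log2 CPM of the 8 markers, averaged 6.68 ± 4.19 in males and -0.63 ± 4.11 in females among Ecad tumours, and 3.53 ± 4.64 in males and 5.12 ± 5.97 in females among ΔEcad tumours (SD, n = 8 per group). The mean log2 CPM of the 9 feedback genes was 6.74 ± 0.52, 7.49 ± 0.33, 7.10 ± 0.52 and 6.72 ± 0.86 in the same groups (SD, n = 8 each). Ecad females had the highest feedback level and the lowest keratinocyte score. How much of the fold changes the keratinocyte RNA accounts for was not tested beyond the fit with marker scores.

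From tumour to tumour many of the feedback genes were high or low together. Of the 45 pairs among the 10 genes, 39 had a positive Pearson correlation in log2 CPM over the 32 tumours, with a median r of 0.395. Of these, 23 pairs passed a Benjamini-Hochberg adjustment over the 45 (two-sided permutation tests), all positive, and 24 did so by Spearman rank correlation. With the mean of each group subtracted 20 pairs passed. Ecad female 4 had all 10 genes above their medians and the highest feedback level (8.12), while Ecad male 5 and ΔEcad female 7 had 0 of 10 above. ΔEcad female 2 had the lowest feedback level, 5.46.

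Spry4 went with both Etv5 and Dusp6. For Spry4 and Etv5 Pearson's r was 0.747 and Spearman's rho 0.768 (permutation p 1e-05 for each, the smallest the permutations can give, adjusted 0.000225), and r was 0.724 with Ecad female 4 and Ecad male 4, the farthest from the median Spry4 level, left out. Within groups r was 0.753, 0.626, 0.595 and 0.80 in Ecad males, Ecad females, ΔEcad males and ΔEcad females. Spry4 and Dusp6 had r 0.70 and rho 0.758 (permutation p 1e-05 for each, adjusted 0.000225), and r was 0.706 without the 2 farthest tumours. Their r by group, in the same order, was 0.864, 0.602, 0.248 and 0.883. For Dusp6 and Etv5 it was 0.64, 0.0681, 0.284 and 0.739, so these relations were not equally close in every group. Whether the groups differ in r was not tested. Among all 17716 other tested genes, Etv5 and Dusp6 were the 2 whose pattern was most like that of Spry4, and Spry4 was the gene most like Dusp6. The same held by TPM, with ranks 2 and 1 for Etv5 and Dusp6 and rank 1 for Spry4.

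Dusp4 correlated with Phlda1 and with Etv1. Dusp4 and Phlda1 had r 0.723 and rho 0.698 (permutation p 2e-05 and 3e-05, adjusted 0.000225 and 0.000337), and r fell to 0.564 without ΔEcad male 7 and ΔEcad female 2. Dusp4 and Etv1 had r 0.702 and rho 0.753 (permutation p 2e-05 for each, adjusted 0.000225 and 0.0003), with r 0.680 without those tumours. The relation of Dusp4 and Etv1 was not the same in all groups, at r -0.0772 in Ecad females and 0.911 in ΔEcad females. Phlda1 had a rho of 0.508 with Etv1, below its rho of 0.626 with Dusp6 and 0.625 with Etv5. These genes were thus not a set apart from Spry4, Etv5 and Dusp6. Etv5 correlated with Dusp4 at r 0.630 and rho 0.591 (permutation p 9e-05 and 0.00046, adjusted 0.000643 and 0.00259). Its r with Dusp4 was 0.516 without the 2 farthest tumours.

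The PEA3 genes did not move as a unit. Etv4 correlated with Etv5 (r 0.485, rho 0.456, permutation p 0.00461 and 0.00956, adjusted 0.0147 and 0.0239, and r 0.500 without the 2 farthest tumours). Etv1 and Etv4 had the lowest r of all pairs, -0.257 (rho -0.241, permutation p 0.158 and 0.183, adjusted 0.215 and 0.229), and -0.156 without the 2 farthest tumours. Etv1 went instead with Spred1 (r 0.598, rho 0.536, permutation p 0.00026 and 0.00155, adjusted 0.0013 and 0.00619, and r 0.534 without the 2 farthest tumours).

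**Figure D3:**
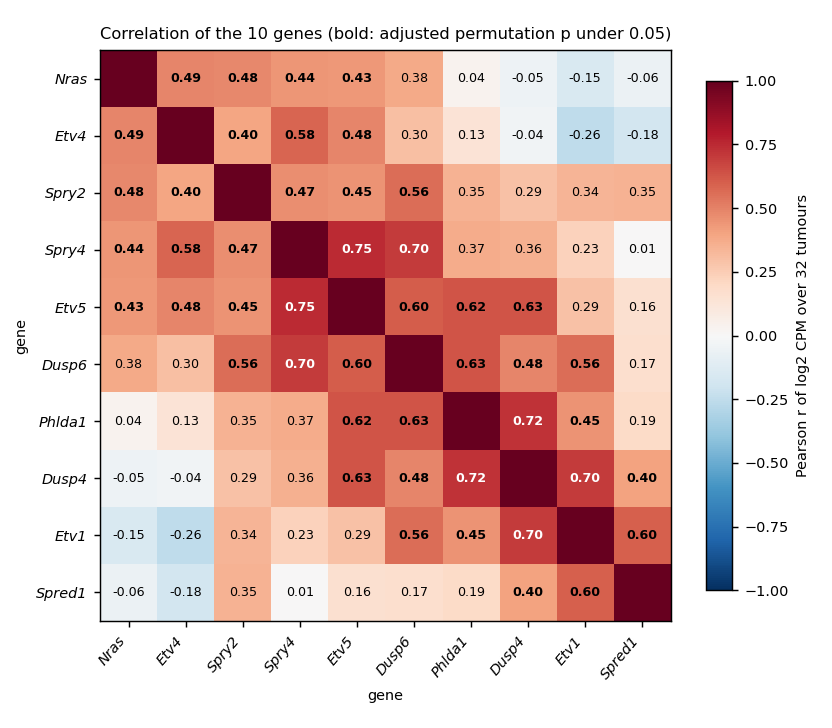
Pearson correlation of log2 CPM between the 10 genes over 32 tumours, from blue (-1) to red (1), with bold where the adjusted permutation p is under 0.05. Spry4, Etv5 and Dusp6 (0.605 to 0.747) and Dusp4 with Phlda1 and Etv1 (0.723 and 0.702) stand out, and Nras is close to 0 with Dusp4, Phlda1, Etv1 and Spred1.

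Nras RNA correlated with Etv4 (r 0.486, rho 0.475, permutation p 0.0049 and 0.00677, adjusted 0.0147 and 0.0179) and with Spry2 (r 0.477, rho 0.516, permutation p 0.00555 and 0.00266, adjusted 0.0156 and 0.00855). Without ΔEcad male 1 and ΔEcad male 6, the 2 farthest, r was 0.410 and 0.437. Spry4 (r 0.443, rho 0.394, permutation p 0.0115 and 0.0261, adjusted 0.0259 and 0.049, r 0.422 without those tumours) also passed, and Etv5 (r 0.435, rho 0.343, permutation p 0.0129 and 0.0561, adjusted 0.0276 and 0.0852, r 0.424 without them) passed by Pearson alone. Dusp6 did not pass (r 0.377, rho 0.354, permutation p 0.0324 and 0.0456, adjusted 0.0607 and 0.0733, r 0.334 without them). On the log2(TPM + 1) scale r was 0.424 for Etv4, 0.494 for Spry2, 0.422 for Spry4, 0.333 for Etv5 and 0.229 for Dusp6. By TPM the rho of Etv4 with Nras was 0.352. Etv4 then had rank 3549 among the other tested genes, against rank 506 in log2 CPM. With Dusp4, Spred1, Etv1 and Phlda1 the r of Nras lay between -0.151 and 0.0371, and between -0.0344 and 0.218 on the log2(TPM + 1) scale. The groups differed for Phlda1, with r 0.929 in Ecad males and 0.754 in ΔEcad females. In Ecad females and ΔEcad males it was -0.0653 and -0.20. Whether these r values differ from one another was not tested.

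The genes whose pattern was most like that of Nras included its neighbours on chromosome 3. Over 32 tumours in log2 CPM the 3 highest Spearman rho values were those of Bcas2 (0.752), a spliceosome component, Anapc4 (0.721, on chromosome 5), a subunit of the anaphase-promoting complex, and Sike1 (0.713). Sike1 lies 49826 bases and Bcas2 103741 bases from Nras on chromosome 3. By TPM Sike1 ranked 2 (rho 0.79) and Anapc4 3, while Bcas2 fell to rank 637 (rho 0.532). The 24 tested genes within 1000000 bases of Nras had a median rho of 0.00156, against -0.0106 for the rest of the chromosome. Of the 9 feedback genes Spry2 was the most like Nras, at rank 314.

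The genes most like the others, given as descriptions over the same 32 tumours, were mostly outside the pathway. For Dusp4 they were Fbxl7 (rho 0.921), Glrb (0.866) and Slc38a10 (0.853), and for Dusp6, after Spry4, 2510009E07Rik (0.735) and Vps29 (0.724). Spry2 was most like Osbpl6 (0.82), Cpe (0.799) and Kif3a (0.749). After Etv5 and Dusp6, Spry4 was most like Cxxc5 (0.744), and Spred1 was most like Cbx3 (0.777), Ngly1 (0.769) and Lrrc58 (0.755). For Etv1 the genes were Arhgap31 (0.891), Abtb2 (0.883) and Spire1 (0.842), and for Etv4 they were Sergef (0.726), Wipi2 (0.712) and Nt5c3b (0.703). Etv5 was most like Gfra1 (0.872), the receptor of the growth factor GDNF, Gm4798 (0.865) and Natd1 (0.862), and Phlda1 was most like Slc23a2 (0.865), Ppp6r1 (0.808) and Shc4 (0.803), an adaptor of receptor tyrosine kinases.

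**Figure D4:**
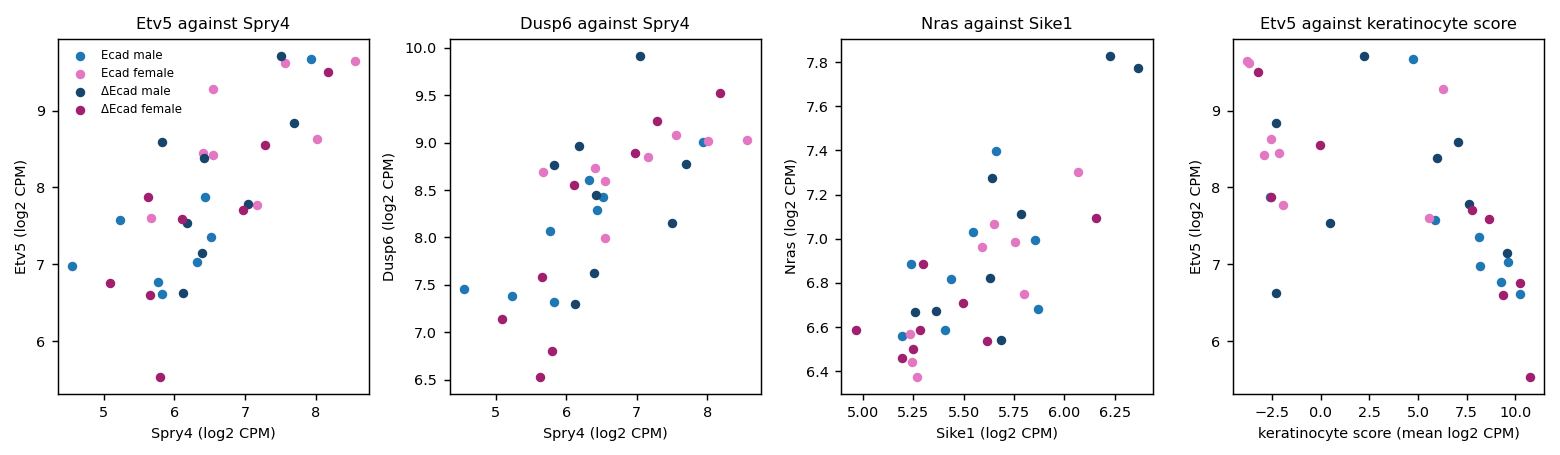
Etv5 and Dusp6 against Spry4, Nras against Sike1 and Etv5 against the keratinocyte score, all in log2 CPM, 1 point per tumour coloured by group. Etv5 and Dusp6 rise with Spry4 (r 0.747 and 0.70), Nras rises with its neighbour Sike1 (Spearman rho 0.713), and Etv5 is lower in tumours of a high keratinocyte score.

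Levels of some of the 10 genes also varied with the makeup of the tumour. Each gene was set against 5 marker scores, 50 relations in all. Over all 32 tumours 8 of the 50 passed the adjustment by Pearson correlation, 18 by Spearman and 7 by both, and 4 passed with the group means subtracted. Of the 8, 3 were with the melanocytic score, 2 with the fibroblast score and 3 (Etv5, Spry4 and Spry2, all negative) with the keratinocyte score. Of the 4 that passed with the group means subtracted, 3 were with the melanocytic score (Phlda1, Dusp4 and Etv5) and 1 with the fibroblast score (Dusp6), while Etv5, Spry4 and Spry2 with the keratinocyte score had adjusted permutation p-values of 0.0528, 0.0528 and 0.0953. For the last the tumours fell into separate ranges, so r is given within each range as a description, with no test.

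The tumours lay at low or at high keratinocyte scores, 14 from -3.76 to 2.22 (6 of them Ecad females and 1 an Ecad male) and 18 from 4.72 to 10.8. Within the 18, Etv5 had r -0.842, Phlda1 -0.699 and Nras -0.553. Within the 14 the same values were -0.0572, 0.0105 and 0.368. All 10 genes had a negative r within the 18 tumours of high score, from -0.842 to -0.214, and 4 of 10 within the 14 of low score. The boundary was set after the scores were seen.

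The melanocytic score correlated positively with Phlda1 (r 0.678, rho 0.473, permutation p 0.00024 and 0.00662, adjusted 0.00912 and 0.0368), Dusp4 (r 0.519, rho 0.378, permutation p 0.00159 and 0.0348, adjusted 0.0159 and 0.083) and Etv5 (r 0.479, rho 0.732, permutation p 0.00222 and 1e-05, adjusted 0.0185 and 0.00025). ΔEcad male 7 stood apart with a score of 0.475 against 7.87 to 11.7 in the other tumours. Without it r was 0.445, 0.346 and 0.655, and without the 2 tumours farthest on the gene axis it was 0.289, 0.151 and 0.433, so the values of Phlda1 and Dusp4 rested on few tumours. Without ΔEcad male 7 the r of Nras with the melanocytic score rose from 0.10 to 0.489. On the log2(TPM + 1) scale it was -0.103 over all 32 tumours. By group, in log2 CPM, it was 0.844 in Ecad males and 0.717 in ΔEcad females, but -0.0449 in Ecad females and 0.0734 in ΔEcad males. By Spearman correlation 7 of the 10 genes passed with the melanocytic score, all positive. Besides Phlda1 and Etv5 these were Spry4 (rho 0.549, adjusted permutation p 0.0152), Nras (0.464, 0.0376) and Dusp6 (0.455, 0.0393). Spry2 (0.438, 0.0426) and Etv4 (0.434, 0.0426) were the others. The fibroblast score correlated negatively with Dusp6 (r -0.566, rho -0.543, permutation p 0.00073 and 0.00182, adjusted 0.00912 and 0.0152) and Phlda1 (r -0.512, rho -0.444, permutation p 0.0028 and 0.0114, adjusted 0.02 and 0.0426), with r -0.603 and -0.334 without the 2 farthest tumours. With the macrophage and endothelial scores r ran from -0.270 to 0.152 and none passed by Pearson correlation, while by Spearman correlation Etv5 with the macrophage score (rho -0.435, permutation p 0.0133, adjusted 0.0426) and Spry2 with the endothelial score (rho -0.422, permutation p 0.0172, adjusted 0.0479) passed. Without ΔEcad male 7 and ΔEcad female 3, the latter with the lowest of both scores, r went from 0.151 to -0.536 for Dusp6 and from -0.124 to -0.508 for Spry2 with the endothelial score, and from -0.199 to -0.534 for Spry2 with the macrophage score.

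The rest of the pathway was read from 7 lists, Nras among them. Of their 68 tested genes 1 was called in ΔEcad against Ecad females, or 1.47%, near the 1.2% of all tested genes, and 0 in the other comparisons. Epha4, an ephrin receptor listed with the ERK-induced genes, rose in ΔEcad females, from 0.215 ± 0.105 to 4.26 ± 3.81 TPM (SD, n = 8 each), with ranges of 0.06 to 0.34 and 0.08 to 8.74 TPM. On the log2 scale this was 4.16 with an SE of 0.84 (edgeR adjusted p 0.0394), and it was called in 22 of 32 fits that leave out a tumour and in 4 of the other 10 alternatives. Its direction was opposite to that of the feedback genes, and its level was low. Of the 16 tested ERK-induced genes, 10 were lower in ΔEcad females and the median was -0.24. Cyclin D1 (Ccnd1), the most abundant of them, averaged 1370 ± 763 TPM in female Ecad tumours against 808 ± 396 TPM in female ΔEcad tumours (SD, n = 8 per group), a log2 difference of -0.79 with an SE of 0.49 (edgeR adjusted p 0.485). Ier3, a small early-response protein, had -0.14 (SE 0.42).

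Among 6 RAS genes, Nras included, 3 were lower and 3 higher in ΔEcad females, with a median of 0.14. Rras, the most abundant RAS gene, had 0.42 (SE 0.33) between female genotypes.

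Of 8 RAS exchange factors, which load RAS with GTP, 3 were lower in ΔEcad females (median 0.17). Rasgrp3 had an interaction of -4.82 (SE 1.19, edgeR adjusted p 0.0526), with means of 20.1 and 70.0 TPM in male and female Ecad tumours and of 108 and 13.6 TPM in male and female ΔEcad tumours. Its ΔEcad male mean had an SD of 230 TPM with 1 tumour at 674 TPM. Sos2, the other named factor, had -0.58 (SE 0.30) between female genotypes. The 10 RAS GTPase-activating proteins, which switch RAS off, had 6 lower (median -0.22), with Rasa3 at 0.06 (SE 0.25), Dab2ip at -0.26 (SE 0.23) and Rasa4 at 1.32 (SE 0.68).

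Of 10 tested genes of the RAF, MEK and ERK cascade itself, 9 were lower in ΔEcad females with a median of -0.20, and 8 were higher in ΔEcad males with a median of 0.09. Mapk3, the gene of ERK1, had -0.49 (SE 0.36) in females and 0.26 (SE 0.36) in males, and Map2k2, the gene of MEK2, -0.16 (SE 0.26) and 0.18 (SE 0.26). All 7 receptor adaptors were lower in ΔEcad females (median -0.26), Grb2 at -0.26 (SE 0.19), Shc1 at -0.16 (SE 0.25) and Gab2 at -0.89 (SE 0.38, edgeR adjusted p 0.238). The 11 tested further ETS factors had 6 lower and a median of -0.16, with Elk3 at -0.46 (SE 0.28) in females and 0.72 (SE 0.28, edgeR adjusted p 0.433) in males, and Erf, an ETS repressor that ERK exports from the nucleus, at -0.46 (SE 0.32) in females. Over all tested genes the median was -0.02 in females, with 51.6% lower in ΔEcad tumours, and 0.11 in males, with 59.1% higher. The cascade median of 0.09 in males was thus not above that of all tested genes. None of these lists held a called gene besides Epha4.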

How the data were processed

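Per the study's methods, the authors made stranded polyA libraries, mapped reads with STAR to GRCm38.p5 (mm10) with an older GENCODE annotation, and used FastQC 0.11.5 (processing notes). They deposited raw read counts per gene and TPM for 50600 genes. They describe batch correction where applicable. Deposited counts were whole numbers, and TPM followed counts with 1 length per gene, within 0.0699% for 996 abundant genes. Groups came from the labels. Nothing says whether tumours came from separate mice, so p-values measure the spread between these samples.

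Counts were tested with edgeR 4.0.16 (two-sided quasi-likelihood, robust, TMM, filterByExpr, 17717 genes, 1 model of 4 groups), with Benjamini-Hochberg adjustment over all genes. The call rule was adjusted p under 0.05 and absolute log2 fold change over 1. SE was derived from the test statistic. On simulated counts (ΔEcad against Ecad females, 17500 genes, 200 changed), 86% of genes changed by 4 and 56% of those changed by 2 (log2) were called. Smaller changes were not simulated, so detection at the size seen for the 10 genes (-0.95 to -0.15) was not tested. Scores and log2 CPM used a prior count of 1. Correlations used 100000 permutations. Alternatives were DESeq2 1.42.0, limma 3.58.1 on log2(TPM + 1) or log2(TPM + 0.1), other size factors, no low-count filter, only the groups compared, replicate number as a block, marker covariates, adjusted p alone, and tumours left out. Correlations without ΔEcad male 7 (alone or with ΔEcad female 3), within ranges of the keratinocyte score, and likeness by TPM were added after the data were seen.

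Members, lists and motifs were chosen with earlier results of these data known. Named were the 10 genes, per list the 2 most abundant genes, the 1 of smallest p and any called, 3 most alike genes per member, Cdh1 and sex-linked genes. Some genes that this rule names are not reported here. Coordinates are GENCODE M21 on GRCm38, 1-based. Fits ran in R 4.3.3 and other values in Python 3.11.15 with scipy 1.17.1.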

Additional observations from a re-analysis of the deposited data

Results flagged for a closer look

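In each group of 8 tumours the highest and the lowest log2 CPM of the 10 genes, and of the mean of the 9 feedback genes, were compared with the nearest other tumour by Dixon's ratio. Of 44 groups examined 3 held a tumour that stood apart, where chance alone gives about 1 in 20. Etv5 was at 483.2 TPM in Ecad male 8, against 74.3 to 164.6 TPM in the other 7 Ecad males (ratio 0.584). Dusp6 was at 244.7 TPM in Ecad female 5, against 302.5 to 563 TPM in the other 7 Ecad females (ratio 0.547). Phlda1 was at 70.56 TPM in ΔEcad male 7, the tumour with the lowest melanocytic score, against 168.7 to 897.7 TPM in the other 7 ΔEcad males (ratio 0.53). The part of the melanocyte content in that value was not tested.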

How the results depend on the processing

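The call that 0 of the 10 genes passed held in all alternatives but that without ΔEcad female 4 (Spry2, 0 to 1 over the fits that leave out a tumour). Of 490 fold changes of the 10 genes under the other alternatives 11 changed sign, and of 1600 with a tumour left out 22 did, none of them called. Between male genotypes Phlda1 was -0.00 with DESeq2 size factors and by DESeq2, -0.49 by limma with either pseudocount and -0.14 with the replicate block, Nras was -0.04 and Spry2 -0.14 by limma with either pseudocount. So 1, 1, 3, 3 and 1 of the 10 were lower in ΔEcad males under DESeq2 size factors, DESeq2, both limma fits and the block, against 0. With marker scores as covariates Spry4 was 0.08 between female genotypes and Etv4 -0.29 between Ecad sexes, where 2 of 10 were lower. The cause was not tested. With a tumour left out, Spred1 ran from -0.31 to 0.02 in females, Phlda1 from -0.12 to 0.20 in males, Nras from -0.13 to 0.08 between Ecad sexes, and Dusp6 (-0.55 to 0.04), Spry4 (-0.53 to 0.13), Etv1 (-1.17 to 0.21) and Phlda1 (-0.15 to 0.29) between ΔEcad sexes. The count of the 10 below 0 then ran from 0 to 1 in males and between Ecad sexes, and from 8 to 10 between ΔEcad sexes.

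Counts of genes called over all genes moved far more. In females 213 genes were called, against 322 with DESeq2 size factors, 555 with no low-count filter, 1281 by DESeq2, 7 with marker covariates, 598 without ΔEcad male 7 and ΔEcad female 3, and 1 by each limma fit, with only the groups compared, with the replicate block and without the library labelled ΔEcad male 2 and ΔEcad female 1. In males 0 became 21 by DESeq2 and 1 with covariates. Between Ecad sexes 9 became 1023 by DESeq2 and 15 with covariates or without ΔEcad male 7 and ΔEcad female 3, and between ΔEcad sexes 7 became 24 by DESeq2 and 0 with only the groups compared. For the interaction 0 became 201 with DESeq2 size factors, 284 with no filter, 1225 by DESeq2, 1 by limma on log2(TPM + 0.1), 2 with covariates and 568 without ΔEcad male 7 and ΔEcad female 3. Leaving out a tumour gave 1 (without Ecad female 1) to 695 (without ΔEcad female 4) in females, 8 to 21 between Ecad sexes, 7 to 8 between ΔEcad sexes and 0 to 848 (without ΔEcad male 3) for the interaction.

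Of the 50 relations with marker scores 8 passed, against 4 with group means removed, 4 on log2(TPM + 1), 5 without the 2 farthest tumours and 14 without ΔEcad male 7 and ΔEcad female 3. Replicate numbers did not pair the tumours: 18 of 48 same-number pairs correlated above 0.1 (median r 0.0418), and 1 of 32 tumours correlated best with its own number. The block called 0 of the 10 genes. Depth did not limit these genes, which had at least 362 counts in every tumour.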
